A study of Mus musculus with 22 samples.

Results

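Hoxb5os is a non-coding RNA transcribed from the HoxB cluster on the strand opposite to the Hox coding genes. It was taken from the gene tables by its symbol (ENSMUSG00000085645) and is 1 of 32285 genes counted. It was followed across the cell types and days of mouse gastruloids, with each gastruloid as a replicate, and set against the HoxB coding genes in the same cells. It was selected on earlier results of these data, and the sources used here do not record whether it was chosen by its levels over days, over cell types or both. Its levels by day and by cell type are therefore given as a description with no test.

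Gastruloids are aggregates of mouse embryonic stem cells that elongate and form derivatives of the germ layers in culture. All groups came from 1 wild-type line, E14Tg2A, seeded at 300 cells per well, aggregated for 48 h and given 3 µM CHIR99021, a GSK3 inhibitor that activates Wnt signalling. Cells were sequenced with 10x Genomics 3' v3.1 chemistry, and in the MULTI-seq experiments a lipid-anchored barcode marked the gastruloid each cell came from. The gastruloids in these experiments had been picked as representative of their plate. The first MULTI-seq experiment held 24 gastruloids at day 5. The second gave 11 at day 4 and 12 at day 4.5. The third gave 24 at day 3 and 16 each at days 3.5, 4, 4.5 and 5. Every group was wild type and received CHIR99021, so no untreated group exists for comparison.

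Hox genes encode homeodomain transcription factors that give cells their position along the body axis. The genes of a cluster are switched on in the order in which they lie on the chromosome, with the genes at the 3' end used earlier and more anteriorly than those at the 5' end. In the elongating tail, Hox genes are active in neuromesodermal progenitors, which feed both the spinal cord and the presomitic mesoderm that segments into somites, and many antisense and intergenic RNAs are transcribed between the coding genes.

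In the mouse genome (GRCm38/mm10, GENCODE M21 annotation) Hoxb5os covers chr11:96291024-96306910 on the minus strand. Its span takes in the whole of Hoxb5 (plus strand, chr11:96303336-96306121) and of Hoxb6 (plus strand, chr11:96292476-96301569), and Hoxb7, at chr11:96286623-96290162, is the next gene beyond its 3' end. Its annotated transcript Hoxb5os-202 is 596 bases long, with exon 1 beyond the 3' end of Hoxb5, on its Hoxb4 side (chr11:96306737-96306910), exon 2 inside the span of Hoxb6 but outside its exons (chr11:96293375-96293554), and exon 3 between Hoxb6 and Hoxb7 (chr11:96291024-96291265). The chemistry reads RNA near its 3' end, and exon 3 of Hoxb5os-202, which holds that end, is shown for this reason. The capitals mark AATAAA, the usual polyadenylation signal, searched on both strands of this exon. It is written 5' to 3' on the minus strand.

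Hoxb5os-202 exon 3, chr11:96291024-96291265: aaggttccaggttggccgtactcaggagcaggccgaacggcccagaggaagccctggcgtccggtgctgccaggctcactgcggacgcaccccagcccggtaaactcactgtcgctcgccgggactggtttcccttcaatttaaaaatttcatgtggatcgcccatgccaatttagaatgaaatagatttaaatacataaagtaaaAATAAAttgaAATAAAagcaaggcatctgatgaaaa

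Exon 3 is 242 bases long and holds AATAAA at 2 places that do not overlap, the second starting 26 bases before the 3' end, and at 0 places on the other strand. The same letters occur in the last 242 bases of 33.7% of the 133386 annotated transcripts that are at least this long. Exons 1, 2 and 3 of Hoxb5os-202 overlap no annotated exon of a gene on the plus strand. The deposited tables count per gene, so they do not show which stretch of Hoxb5os a count came from, and the sources used here do not state how strand was used in counting. Outside these exons, a count taken without strand from a stretch that overlaps a sense exon could not be told apart from the sense gene.

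The deposited cell table lists 77674 cells in 18 lanes, named as 25 cell types by the authors, and gives 53730 of them to 136 gastruloids, of which 135 had at least 30 cells and were used. The other 23944 cells had been called doublets, negative or unidentifiable and were left out of every comparison between groups. The counts of a gastruloid summed to 1293296 to 57333371 unique molecular identifiers (UMIs), and Hoxb5os contributed 231296 UMIs in 30837 cells over all lanes. The lanes of the 3 experiments differed in depth: the median UMIs per cell were 8287 to 15709 in the first, 21094 to 27116 in the second and 26466 to 38443 in the third. The median mitochondrial share of counts was 5.42% to 5.48%, 5.20% to 5.32% and 1.94% to 2.26% in the same order. At most 15 cell barcodes (0.41%) were shared by any 2 lanes. Marker genes were checked for types the results turn on: over all cells of each name, Tbx6 and Hes7 were highest in Late Posterior PSM (presomitic mesoderm), Meox1, Uncx and Pax3 in Mature Somites, Tcf15 in Somites, Cdx2 in NMPs (neuromesodermal progenitors), Sox2 and Pax6 in Late Spinal Cord, Kdr and Cdh5 in Endothelium, Sox17 and Epcam in Mature Endoderm and Twist1 in Head Mesoderm, each among 25 types. Other markers were highest under another name, such as Prrx2, on the head mesoderm list, in Somites, so the check is partial. The marker list for NMPs held Cdx2, T and Nkx1-2. Only Cdx2 is given above as highest in NMPs, so the check of that name rests on it alone.

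Hoxb5os was close to absent at day 3 and abundant at day 5. In the third experiment its level in summed gastruloids, in CPM (UMI counts scaled to the same total in every library), ran from 0 through a median of 0.122 to 1.07 at day 3, with 9 of 24 gastruloids at 0 UMIs. At day 3.5 it ran from 1.95 through 9.55 to 45.2, and at day 4 from 7.89 through 22.1 to 59.998. The ranges of days 3.5 and 4 overlapped widely, since only 3 of the 16 day 4 gastruloids lay above all those of day 3.5. Of these 16, 15 lay above the day 3.5 median. At day 4.5 the level ran from 83.0 through 214 to 333, so that all 16 gastruloids lay above every gastruloid of day 4. At day 5 it ran from 137 through 279 to 434, and 6 of 16 lay above all those of day 4.5. The means were 0.200 ± 0.259 (SD, n = 24), 11.7 ± 10.8, 27.7 ± 16.2, 201.2 ± 76.2 and 283 ± 95 (n = 16 each), a fold of means of 58.6 from day 3 to 3.5, 2.36 to day 4, 7.27 to day 4.5 and 1.41 to day 5. Days 3 and 3.5 came from different lanes, so that lane and day cannot be told apart in the fold of 58.6. The largest gap between neighbouring days after day 3.5 thus lay between days 4 and 4.5, which came from different pools of lanes in the third experiment, so that pool and day cannot be told apart there. In the second experiment both days shared 1 pool: the level ran from 9.72 through 33.1 to 45.05 at day 4 (mean 30.1 ± 13.2, n = 11) and from 34.3 through 118 to 249 at day 4.5 (133 ± 70.7, n = 12). There 11 of 12 day 4.5 gastruloids lay above all those of day 4, and the fold of means was 4.42. At day 5 of the first experiment it ran from 131 through 348 to 519 (341 ± 88.9, n = 24). In summed gastruloids, fewer cells of a type and less RNA per cell cannot be told apart.

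**Figure D1:**
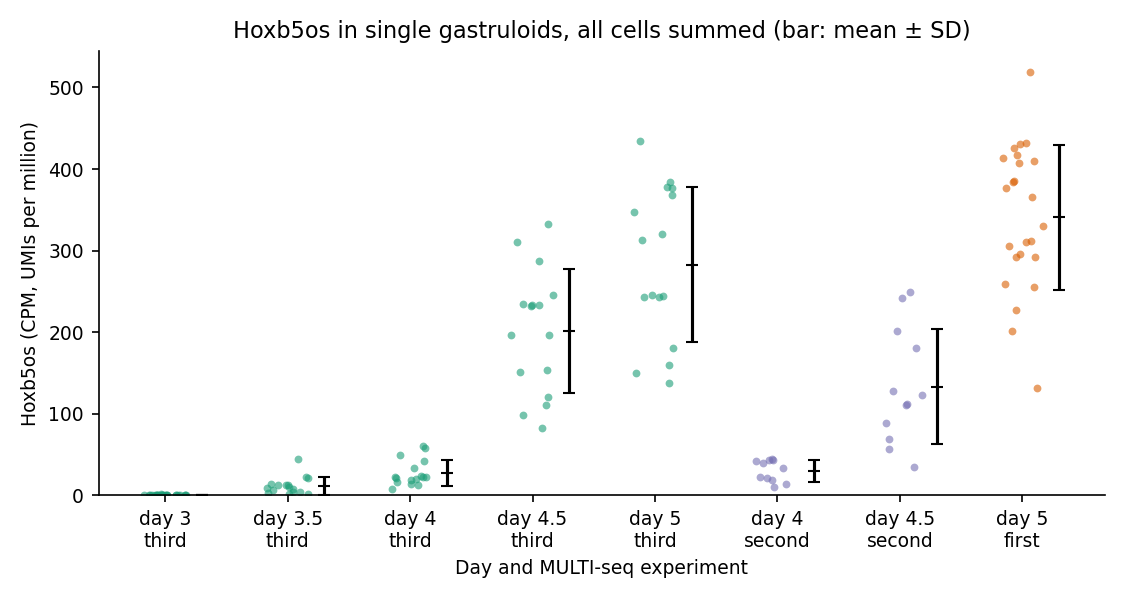
Hoxb5os in CPM of each gastruloid's summed counts (y axis) by day and MULTI-seq experiment (x axis). Each point is 1 gastruloid and the bar beside it the mean ± SD. Day 3 lies at or near 0, all 16 day 4.5 gastruloids of the third experiment lie above all 16 of day 4, and days 4.5 and 5 overlap.

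The neighbouring coding genes had smaller steps after day 3.5. Hoxb5, which lies inside the Hoxb5os span, averaged 8.19 ± 2.96, 8.44 ± 3.00, 11.1 ± 2.07 and 10.2 ± 1.74 CPM at days 3.5, 4, 4.5 and 5 of the third experiment (n = 16 each). Hoxb6, the other enclosed gene, averaged 13.8 ± 7.42, 14.1 ± 9.38, 23.1 ± 5.38 and 21.1 ± 4.46. The day 5 mean was 1.25 times that of day 3.5 for Hoxb5 and 1.53 times for Hoxb6, against 24.1 times for Hoxb5os. Hoxb9, the most posterior HoxB gene with sizeable counts, averaged 121 ± 71.3, 58.6 ± 72.8, 152 ± 74.9 and 158 ± 50.4 over the same days. A large step between days 4 and 4.5 was not particular to Hoxb5os. Hoxa7, in the HoxA cluster, averaged 4.93 ± 3.02, 6.62 ± 6.08, 55.2 ± 25.2 and 78.1 ± 14.1. Hoxa5 averaged 9.68 ± 4.22, 8.84 ± 3.11, 12.2 ± 2.22 and 19.0 ± 3.25.

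Days that shared a pool were fitted with edgeR's quasi-likelihood test over all genes, a gene being called at a Benjamini-Hochberg adjusted p under 0.05. From day 4 to 4.5 in the second experiment, where 7.36% of all genes tested were called, Hoxb5os differed by 2.17 on the log2 scale. Of the 9 HoxB coding genes tested (Hoxb13 did not pass the filter on low counts), only Hoxb3, a group 3 gene of the anterior cluster, was called higher, against 3.03% of all genes (0.63, SE 0.150, adjusted p = 0.0109). Hoxb5 differed there by 0.24 (adjusted p = 0.694) and Hoxb6 by 0.58 (adjusted p = 0.320). The count of all genes called there was 814, and 535 and 340 when either lane of the pool was left out. From day 3.5 to 4 in the third experiment, with 60.4% of genes called, Hoxb5os differed by 1.14. Hoxb3 rose by 0.78 (adjusted p = 0.000264, 31.1% of all genes called higher), Hoxb7 fell by 1.02 (adjusted p = 0.00263), Hoxb8 fell by 1.03 (adjusted p = 0.00551), Hoxb9 fell by 1.08 (adjusted p = 0.0256), and the other 5 were not called. From day 4.5 to 5, with 13.5% of genes called, Hoxb5os differed by 0.48 and 0 of 9 HoxB coding genes was called (6.35% of all genes were called higher).

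By cell type, Hoxb5os was highest in the progenitors of the tail, the posterior presomitic mesoderm and the spinal cord. It was lower in somites, and lowest in anterior mesoderm, endothelium and endoderm. At day 5 of the third experiment it stood at 533 ± 70.0 CPM in NMPs (n = 16 gastruloids with at least 10 such cells). Late Posterior PSM, the unsegmented mesoderm next to the progenitors, was at 494 ± 42.2 (n = 16), Late Spinal Cord at 476 ± 38.8 (n = 8) and Early Spinal Cord at 420 ± 77.3 (n = 16). In this order no neighbouring pair differed by more than the larger of the pair's SDs. Late Anterior PSM, where cells approach segmentation, was at 334 ± 35.6 (n = 15), Somites at 192 ± 43.8 (n = 12) and Mature Somites at 70.8 ± 27.3 (n = 16), each below the type before it by more than that SD. Along the order from presomitic mesoderm to differentiated somites the level thus stepped down at each name. Mature Endoderm was at 2.82 ± 0.97 (n = 9), Endothelium at 2.44 ± 3.51 (n = 6) and Head Mesoderm at 2.31 ± 2.95 (n = 7), which lay within their SDs of each other. Without the highest gastruloid the means were 1.23 in Endothelium and 1.28 in Head Mesoderm. This order holds types found in at least 5 gastruloids. Of those in fewer, Notochord spread widely, at 3.15, 68.7 and 152 in its 3 gastruloids.

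The first experiment gave nearly the same order at day 5. NMPs were at 489 ± 61.1 (n = 22), Late Spinal Cord at 464 ± 81.2 (n = 15), Early Spinal Cord at 449 ± 61.5 (n = 23) and Late Posterior PSM at 437 ± 47.2 (n = 22), again with neighbours inside the larger SD. Late Anterior PSM followed at 324 ± 60.6 (n = 19), Somites at 184 ± 26.4 (n = 13), Mature Somites at 92.5 ± 39.4 (n = 23) and Mature Endoderm at 14.3 ± 4.50 (n = 6). In fewer gastruloids, Cardiopharyngeal Mesoderm stood at 28.0 ± 1.16 (n = 2), above Mature Endoderm, and Notochord at 60.4 (n = 1, with no spread). Late Neurectoderm stood at 55.1 and 240 in its 2 gastruloids, against 12.6 ± 11.1 (n = 4) in the third experiment.

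**Figure D2:**
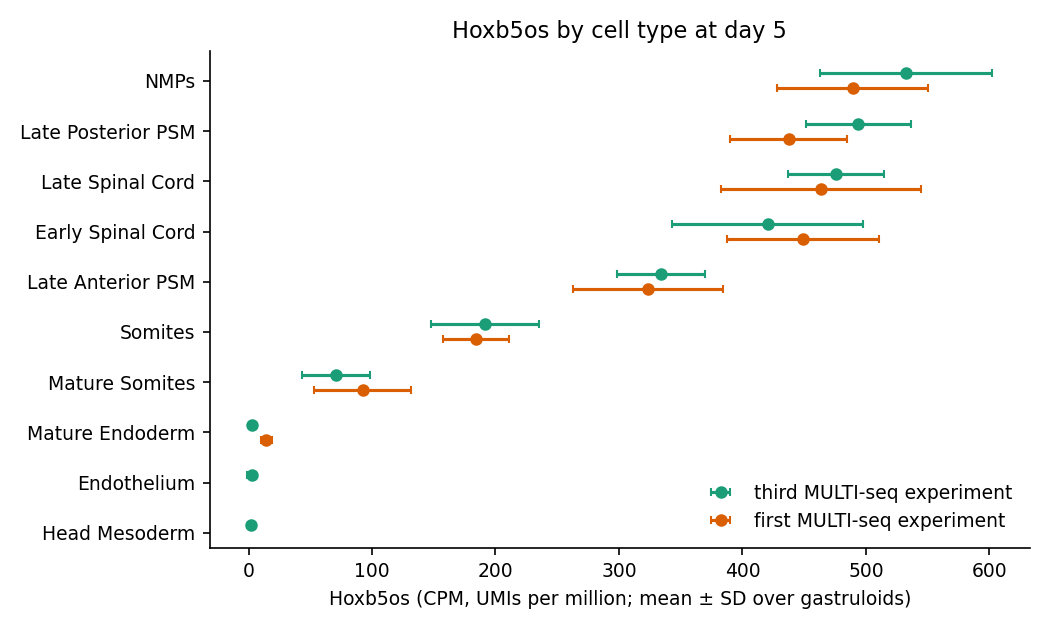
Hoxb5os at day 5 by the authors' cell type (y axis), in CPM (x axis, mean ± SD over gastruloids with at least 10 cells of the type). In both experiments 4 types lie above 420, Mature Somites lie below 100 and Mature Endoderm lies below 15. Endothelium and Head Mesoderm, also below 15, are shown for the third experiment only.

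The share of cells with at least 1 Hoxb5os UMI gave a similar picture once each cell was thinned to 5000 UMIs, with shallower cells left out. In the first and the third experiment at day 5, 89.4% and 89.9% of NMPs held a Hoxb5os UMI (mean over gastruloids), 85.8% and 86.7% of Late Spinal Cord, 76.8% and 76.3% of Late Anterior PSM, 59.7% and 58.3% of Somites, and 30.5% and 25.1% of Mature Somites. Head Mesoderm, which lies anterior to the expression domain of group 5 Hox genes, gave 6.39% and 0.906%. How much of that share was free RNA was not tested. The share in Mature Somites lay above it in both experiments, at median depths of 10026 and 24907.5 UMIs per cell against 11262 and 26567 in Head Mesoderm. Without thinning, NMPs reached 97.7% and 99.9%, Mature Somites 45.7% and 49.8%, and Head Mesoderm 11.8% and 6.87%. The cells left out as shallower were 58 of 1702 Mature Somites and 2 of 114 Head Mesoderm cells in the first experiment, and 0 of either in the third.

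At earlier days the highest levels were in types of the posterior end and in the spinal cord. At day 3, Hoxb5os had 36 UMIs in all 24 gastruloids together. At day 3.5 it stood at 12.04 ± 9.02 CPM in Caudal Epiblast (n = 15), the posterior epiblast from which the tail progenitors form, at 82.0 ± 45.5 in Early Spinal Cord (n = 10), at 8.22 ± 3.75 in Caudal Neurectoderm (n = 13) and at 2.38 ± 1.73 in Early Posterior PSM (n = 13). The other 3 types found in at least 5 gastruloids that day averaged under 1 CPM. In fewer gastruloids, Late Spinal Cord stood at 80.3 ± 43.5 (n = 3), Late Posterior PSM at 52.6 ± 29.3 (n = 4) and NMPs at 115 (n = 1, with no spread). At day 4, among types found in at least 5 gastruloids, Early Spinal Cord, Late Posterior PSM, NMPs and Late Anterior PSM stood highest, in that order. The gaps between Early Spinal Cord, Late Posterior PSM and NMPs lay within the larger SD. Caudal Epiblast followed at 43.0 ± 14.8 (n = 15), within the larger SD of Late Anterior PSM, and the other 10 types in the order were lower, such as 9.04 ± 6.06 in Notochord (n = 7), 2.21 ± 1.86 in Early Anterior PSM (n = 14) and 0.813 ± 0.876 in Cardiopharyngeal Mesoderm (n = 8). In fewer gastruloids, Late Spinal Cord stood at 135 ± 25.9 (n = 2). At day 4.5 of the second experiment Late Spinal Cord stood highest, at 304 ± 25.8 (n = 5). Early Spinal Cord, at 222 ± 56.6 (n = 11), was lower by more than the larger SD, followed by Late Posterior PSM at 221 and NMPs at 210. In the third experiment that day Late Posterior PSM (347), NMPs (341), Late Spinal Cord (338) and Early Spinal Cord (291) were neighbours within the larger SD.

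Within single cell types the level also differed between days. In NMPs of the third experiment it was 136 ± 39.8 at day 4 (n = 14), 341 ± 44.3 at day 4.5 (n = 13) and 533 ± 70.0 at day 5 (n = 16). In Late Posterior PSM it was 144 ± 36.6 (n = 14), 347 ± 52.4 (n = 12) and 494 ± 42.2 (n = 16), and in Early Spinal Cord 148 ± 52.2 (n = 5), 291 ± 45.4 (n = 15) and 420 ± 77.3 (n = 16). Late Anterior PSM went from 60.6 ± 30.2 (n = 10) through 211 ± 43.4 (n = 9) to 334 ± 35.6 (n = 15). These 4 types thus held Hoxb5os at day 4 and more of it at each later day. The segmented mesoderm was low at day 4: Somites were at 3.81 ± 9.63 (n = 12), 71.0 ± 27.4 (n = 10) and 192 ± 43.8 (n = 12), and Mature Somites at 1.43 ± 0.98 (n = 7), 11.6 ± 6.49 (n = 13) and 70.8 ± 27.3 (n = 16). The day 4 mean of Somites rests on 1 gastruloid at 34.1, against a median of 0.886 and a mean of 1.05 without it.

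**Figure D3:**
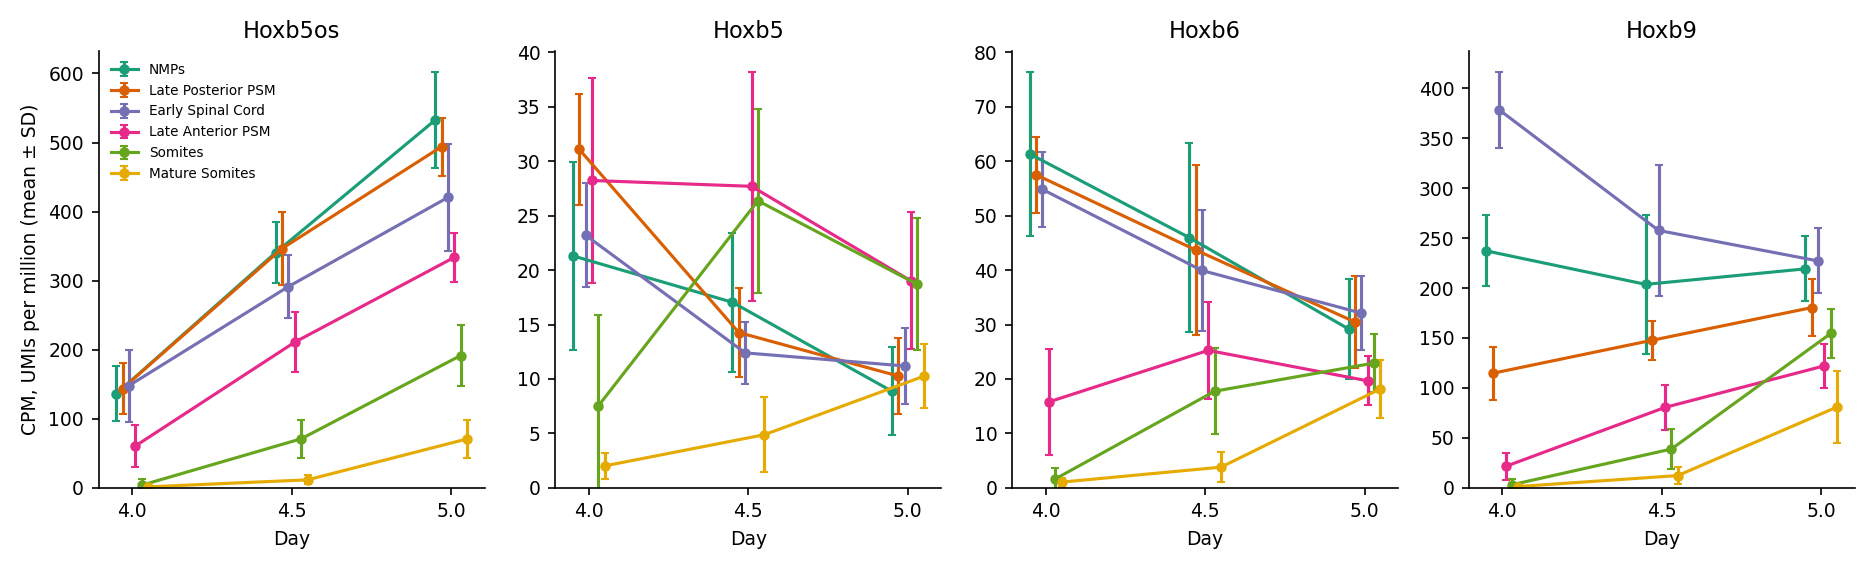
Hoxb5os, Hoxb5, Hoxb6 and Hoxb9 in 6 cell types of the third experiment at days 4, 4.5 and 5, in CPM (mean ± SD over gastruloids, 1 panel per gene with its own y axis). Hoxb5os is higher at each later day in all 6 types, while Hoxb5 in NMPs goes from 21.3 to 8.87 and Hoxb6 in NMPs from 61.3 to 29.2 between days 4 and 5.

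In the third experiment the pair of coding genes enclosed by Hoxb5os went the other way in the progenitors. In NMPs, Hoxb5 averaged 21.3 ± 8.63 CPM at day 4 (n = 14), 17.04 ± 6.38 at day 4.5 (n = 13) and 8.87 ± 4.03 at day 5 (n = 16), and Hoxb6 61.3 ± 15.1, 46.0 ± 17.3 and 29.2 ± 9.22. In Early Spinal Cord Hoxb5 averaged 23.2, 12.4 and 11.2 and Hoxb6 54.8, 39.9 and 32.1 at these days. Pool and day cannot be told apart between days 4 and 4.5 here. In the second experiment, where these days shared 1 pool, Early Spinal Cord was not lower at day 4.5. Hoxb5 averaged 12.7 ± 9.46 (n = 4) and 14.01 ± 5.25 (n = 11), and Hoxb6 37.97 ± 9.91 and 53.2 ± 15.1. Its NMPs were lower for both genes (16.4 to 13.6 and 57.5 to 39.9, n = 2 and 8). So was its Late Posterior PSM (23.9 to 18.7 and 55.4 to 42.1, n = 6 and 8). The fall from day 4.5 to 5 was not seen between the other experiments. NMPs of the second at day 4.5 stood at 13.6 ± 5.11 for Hoxb5 and 39.9 ± 8.46 for Hoxb6 (n = 8). Those of the first at day 5 stood at 13.2 ± 5.82 and 43.8 ± 16.0 (n = 22). From day 4.5 to day 5 of the third experiment, which shared lanes, 7.55% of all genes tested in NMPs were called by edgeR, and both genes were among them: Hoxb5 fell by 0.82 on the log2 scale (SE 0.193, adjusted p = 0.00352) and Hoxb6 fell by 0.69 (SE 0.132, adjusted p = 0.000284). Hoxb5os differed by 0.59 in the opposite direction in the same fit. In Late Posterior PSM (6.88% of genes called) Hoxb6 fell by 0.44 (SE 0.116, adjusted p = 0.0113), the Hoxb5 difference of -0.41 was not called (adjusted p = 0.121), and Hoxb5os differed by 0.46. These directions and calls were the same with total counts in place of TMM normalization. With at least 20 cells of the type per gastruloid, the Hoxb5 difference in NMPs was -0.61 and no longer called (adjusted p = 0.0608), while that of Hoxb6 was still called.

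In Mature Somites the enclosed genes and Hoxb5os were higher at day 5 alike. With 14% of genes called there, Hoxb5 rose by 0.96 (adjusted p = 0.000998) and Hoxb6 by 2.14 (adjusted p = 7.54e-09), while Hoxb5os differed by 2.498. Hoxb9 rose by 2.82 (adjusted p = 5.85e-09), and in all 7 of the 9 HoxB coding genes tested were called higher and 1 lower in this type. In Somites (3.6% of genes called) Hoxb9 rose by 2.12 (adjusted p = 2.91e-14), 3 of 9 were called higher and 0 lower, and Hoxb5os differed by 1.41.

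Over all 9 HoxB coding genes tested the calls were mixed in the progenitor and neural types. In NMPs 2 were called higher and 3 lower, Hoxb5 and Hoxb6 among the latter. Hoxb4, on the anterior side of Hoxb5, rose by 0.21 (adjusted p = 0.0171), and Hoxb8, on the posterior side of Hoxb7, fell by 0.29 (adjusted p = 0.000219). In Late Posterior PSM 2 were higher and 2, Hoxb6 and Hoxb1, lower, with Hoxb4 up by 0.26 (adjusted p = 0.00558) and Hoxb9 up by 0.22 (adjusted p = 0.0372). The calls of Hoxb4 in NMPs (0.20, adjusted p = 0.0806) and of Hoxb9 in Late Posterior PSM (0.19, adjusted p = 0.0956) were lost at the minimum of 20 cells. In Early Spinal Cord (12.4% of genes called) 4 were higher and 2 lower: Hoxb8 fell by 0.54 (adjusted p = 1.71e-08) and Hoxb5os differed by 0.54. In Late Spinal Cord (7.79%) 1 was higher and 1 lower, Hoxb8 fell by 0.24 (adjusted p = 0.0347) and Hoxb5os differed by 0.54. In Late Anterior PSM (2.86%) Hoxb9 alone was called, up by 0.64 (adjusted p = 0.000187), and Hoxb5os differed by 0.67. Between day 3.5 and day 4, Hoxb5os differed by 1.67 in Caudal Epiblast (21.2% of genes called), where 6 of 9 HoxB coding genes were called higher, by 2.35 in Early Posterior PSM (38.3%, of which 19.7 percentage points were higher), where 4 of 6 tested were higher and 1 lower, and by 0.66 in Early Spinal Cord (2.8%). In Primitive Streak (5.58%) 0 of 6 HoxB coding genes tested were higher and 5 lower, where Hoxb8 fell by 1.95 (adjusted p = 7.49e-05), and in Mature Endoderm from day 4.5 to 5 (1.63%) Hoxb8 alone was tested and was not called (adjusted p = 0.316). Hoxb5os did not pass the filter on low counts in Mature Endoderm or Primitive Streak. In the second experiment, Hoxb5os differed by 0.91 from day 4 to 4.5 within Late Posterior PSM (1.13% of genes called).

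The change in a gastruloid combines the level within each type with the makeup of types. A split of the pooled counts, made after the data were seen and given with no error, put 85.6 of the 171 CPM gained between days 4 and 4.5 of the third experiment on the level within types and 85.4 on the makeup, with 23 of 24 shared types higher at day 4.5. In the second experiment 48.5 of 101 lay with the level and 52.1 with the makeup, with 17 of 22 types higher. Between days 4.5 and 5 of the third experiment the level within types accounted for 107 of a gain of 99.1, the makeup for -7.63, and 13 of 23 types were higher.

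Late Spinal Cord exceeded Mature Somites by 3.08 on the log2 scale in the third experiment at day 5 and by 2.38 in the first, with 58.8% and 34.5% of all genes called between these types. There 8 and 7 of 9 HoxB coding genes were called higher in Late Spinal Cord and 0 lower. At day 4.5, Early Spinal Cord exceeded Mature Somites by 4.53 in the third experiment and 5.84 in the second (55.1% and 43.5% of genes called), with 8 of 9 HoxB coding genes higher and 1 lower in both. At day 5, NMPs exceeded Late Posterior PSM by 0.07 in the third experiment and 0.11 in the first, with 33.9% and 28% of genes called, so that Hoxb5os was close to even between the progenitors and the posterior mesoderm at that day. Between the same types at day 5, Cdx2, a homeobox activator of Hox genes, differed by 1.69 and 1.61, and Hoxa7 by 0.99 and 1.33.

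A ratio of UMIs inside one gastruloid does not depend on its total where both counts are well above the added 0.5, so the ratio of Hoxb5os to each HoxB gene was compared between groups, as log2 with 0.5 added to both counts. No level is compared between genes by it. The log2 ratio to Hoxb5 over all cells averaged 0.12 ± 0.88, 1.58 ± 0.56, 4.08 ± 0.61 and 4.72 ± 0.58 over days 3.5, 4, 4.5 and 5 of the third experiment (n = 16 each). Within NMPs it was 2.64 ± 0.69 at day 4, 4.35 ± 0.68 at day 4.5 and 6.03 ± 1.02 at day 5, while in Mature Somites at day 5 it was 2.74 ± 0.33. In NMPs at day 5 Hoxb5 had 226 UMIs over 16 gastruloids. The lowest held 0, and its ratio follows the added 0.5 and its depth. The ratio to Hoxb6 in NMPs was 1.11, 2.93 and 4.22 at the same 3 days. The balance between the antisense RNA and the enclosed coding genes thus differed both by day and by cell type.

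The experiments could be compared at 3 days, with depth and mitochondrial share as given above, which cannot be told apart from the experiment. Over summed gastruloids Hoxb5os differed between the third and the first experiment at day 5 by -0.04 on the log2 scale (SE 0.145, edgeR adjusted p = 0.831, 63.7% of all genes called). Between the third and the second it differed at day 4 by -0.26 (SE 0.307, adjusted p = 0.525, 46.1% called) and at day 4.5 by 0.65 (SE 0.263, adjusted p = 0.0468, 42.5% called). Total counts moved the median of all genes by -0.25, 0.18 and -0.05 in these 3 comparisons and gave Hoxb5os -0.27 (adjusted p = 0.0783) at day 5. The call at day 4.5 was lost with total counts (0.60, adjusted p = 0.0559) and with no filter on low counts (0.65, adjusted p = 0.0681). Of the HoxB coding genes, 5 of 9 were called lower in the third experiment at day 5, among them Hoxb6 by -0.45 (adjusted p = 0.000288) and Hoxb1 by -0.98 (adjusted p = 9.64e-06), and 0 higher.

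Within types at day 4.5, Hoxb5os was higher in the third experiment by 0.70 in Late Posterior PSM (SE 0.078, adjusted p = 1.23e-09, 29.3% of genes called), where the second stood at 221 ± 35.3 CPM (n = 8). It was higher by 0.69 in NMPs (SE 0.092, adjusted p = 2.32e-07, 23.1% called; second experiment 210 ± 47.9, n = 8) and by 0.34 in Early Spinal Cord (SE 0.087, adjusted p = 0.00166, 40.8% called; 222 ± 56.6, n = 11). In Mature Somites it was higher by 1.85 (SE 0.332, adjusted p = 5.14e-05, 30.5% called; 4.14 ± 2.89, n = 8). In Late Spinal Cord the difference of 0.12 was not called (adjusted p = 0.396, 26.1% called; 304 ± 25.8, n = 5). All 4 calls held with total counts.

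At day 5, within types, total counts moved the median of all genes between the third and the first experiment by -0.21 to -0.29. Hoxb5os was higher in the third by 0.35 in Late Posterior PSM (SE 0.043, adjusted p = 1.86e-10, 53.5% called; 0.16 and adjusted p = 0.000873 with total counts). It was higher by 0.29 in NMPs (SE 0.051, adjusted p = 1.34e-06, 53.6% called; 0.11 and adjusted p = 0.0476 with total counts). In Late Anterior PSM it differed by 0.27 (adjusted p = 0.000496, 46.5% called) and in Late Spinal Cord by 0.29 (adjusted p = 0.000472, 48.5% called), and both calls were lost with total counts (0.076 and 0.050). In Early Spinal Cord the difference of 0.14 (adjusted p = 0.0482, 59.8% called) turned to -0.086 with total counts and was not called. Somites (0.16, adjusted p = 0.224, 39% called) and Mature Somites (-0.09, adjusted p = 0.636, 54.3% called) were not called. In Mature Endoderm (14.5% called) Hoxb5os did not pass the filter on low counts and was not tested, at 2.82 ± 0.97 CPM in the third experiment and 14.3 ± 4.50 in the first. Head Mesoderm, not fitted, was at 2.31 ± 2.95 (n = 7) in the third and 10.5 ± 7.39 (n = 4) in the first. At day 4, 0 of 4 types tested was called, with differences of -0.01 in Caudal Epiblast (19.2% of genes called), -0.06 in Early Anterior PSM (15.3%), -0.33 in Early Posterior PSM (31.5%) and 0.10 in Late Posterior PSM (31.5%).

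The change from day 4 to 4.5 was set against the experiment in 1 edgeR model, added after the data were seen. For Hoxb5os it was 0.89 larger on the log2 scale in the third experiment (SE 0.417, edgeR adjusted p = 0.0930, with 33.9% of all genes called), so a difference in the size of the step was not shown.

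For the ratios, permutation tests over gastruloids (100000 resamples, two-sided, adjusted over the 60 comparisons computed) gave the following. The 60 comparisons include those between days, which are not read as tests here. An adjustment over the comparisons of experiments alone was not made. At day 5 the log2 ratio of Hoxb5os to Hoxb5 differed between the third and the first experiment by 0.03 (adjusted p = 0.872), that to Hoxb7 by 0.01 (adjusted p = 0.958), that to Hoxb8 by 0.12 (adjusted p = 0.321) and that to Hoxb9 by 0.10 (adjusted p = 0.135). The ratio to Hoxb6 was higher by 0.35 (adjusted p = 0.0469), a call lost when any of 3 lanes was left out (adjusted p = 0.0525 to 0.0655): lanes 2 and 3 of the first experiment and lane B of the third. Ratios to the anterior genes were also higher in the third experiment: Hoxb1 by 0.80 (adjusted p = 0.0144), Hoxb2 by 0.59 (adjusted p = 0.000229), Hoxb3 by 0.61 (adjusted p = 6.0e-05, from the smallest p these resamples can give) and Hoxb4 by 0.46 (adjusted p = 0.000221). At day 4.5, between the third and the second experiment, the ratio to Hoxb5 differed by 0.49 (adjusted p = 0.0955) and was not called. That to Hoxb6 was higher by 0.73 (adjusted p = 0.000382), to Hoxb7 by 0.41 (adjusted p = 0.0218), to Hoxb2 by 1.02 and to Hoxb3 by 0.95. At day 4 none of the ratios to Hoxb1 to Hoxb9 was called. Ratios to Hoxb13 are not read, since its counts were too low (0 UMIs in the second experiment at day 4 and 13 in the third) and the value then follows the depth. Of the ratios to the other 9 genes, that to Hoxb5 was not called at any of the 3 days. Its 0.49 at day 4.5 was still larger than the called 0.41 of Hoxb7. All these ratios are over all cells, so the makeup of types enters them. Within NMPs at day 5 the ratio to Hoxb5 averaged 6.03 ± 1.02 in the third and 5.20 ± 0.69 in the first experiment. In Mature Somites it averaged 2.74 ± 0.33 and 2.82 ± 0.86, and neither difference was tested.

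**Figure D4:**
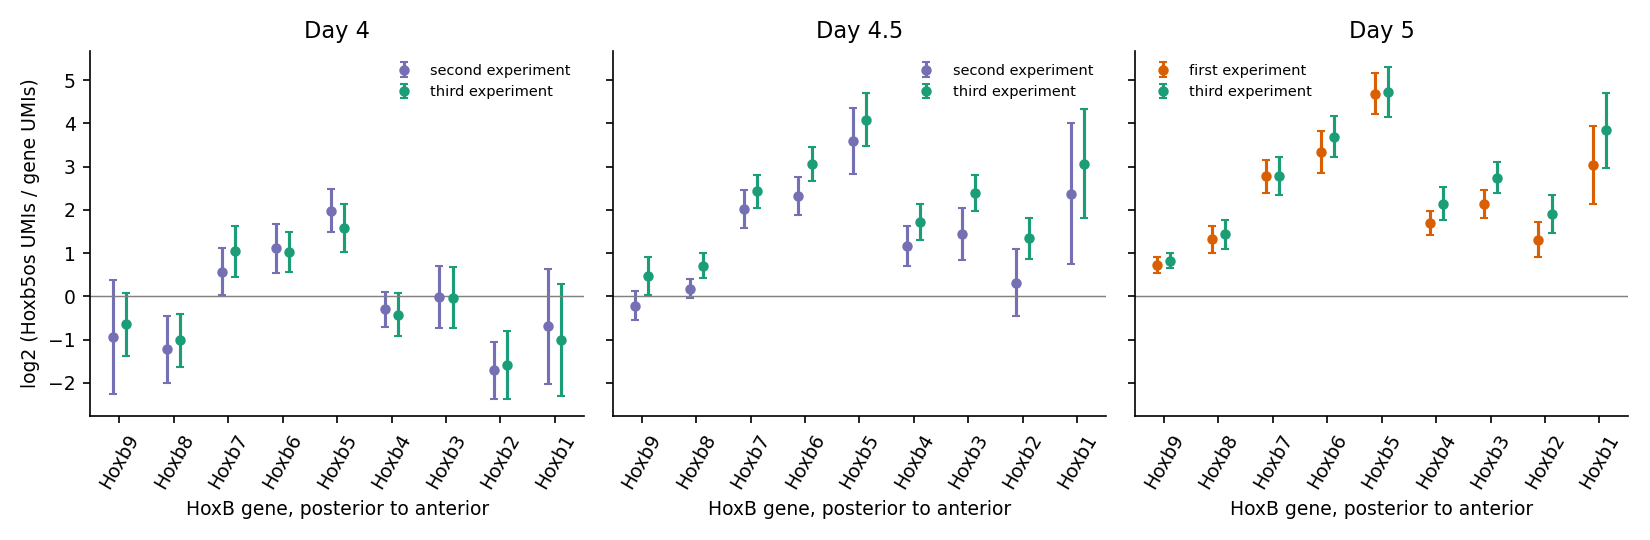
Log2 ratio of Hoxb5os UMIs to the UMIs of each HoxB coding gene (y axis) by gene from posterior to anterior (x axis), at days 4, 4.5 and 5, as mean ± SD over gastruloids of 2 experiments each. The ratio to Hoxb5 at day 5 averages 4.72 in the third and 4.68 in the first experiment, while the ratios to Hoxb1 to Hoxb4 lie higher in the third.

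Whether cells that held Hoxb5os also held HoxB coding RNA was asked within single types at day 5, with cells thinned to 5000 UMIs and the difference taken inside each gastruloid. Mature Somites of the first experiment gave 497 cells with and 1122 without a Hoxb5os UMI in 22 gastruloids. Hoxb9 was detected in 45.2% of the former and 20.3% of the latter, a difference of 24.8 ± 10.7 percentage points (SD over gastruloids), positive in 22 of 22. By a sign-flip permutation test its adjusted p was 0.000400, from the smallest p that 100000 resamples can give. Hoxb8 differed by 17.8 points (39.1% against 21.3%, 21 of 22, adjusted p = 0.000400), Hoxb7 by 10.5 points (adjusted p = 0.0225) and Hoxb6 by 7.44 points (adjusted p = 0.0217). Hoxb5 differed by 1.84 points (7.24% against 5.41%, adjusted p = 0.490) and Hoxb2 by -2.68 points, neither called.

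The third experiment, with 849 cells with and 2341 without in 16 gastruloids, gave a similar order under the exact sign-flip test. Hoxb9 differed by 29.4 ± 7.41 points (47.9% against 18.5%, 16 of 16, adjusted p = 0.000488), Hoxb8 by 16.5 points and Hoxb7 by 12.6 points, both in 16 of 16 gastruloids with the same adjusted p. Hoxb6 differed by 3.75 points (adjusted p = 0.179) and Hoxb5 by 1.94 points (6.28% against 4.34%, adjusted p = 0.306), neither called. With cells thinned to 8000 UMIs both were called in this experiment, Hoxb6 at 10.5 points (adjusted p = 0.000407) and Hoxb5 at 5.68 points (adjusted p = 0.00366). Detection of Hoxb5os in Mature Somites thus went with that of the posterior genes Hoxb7 to Hoxb9 in both experiments, while the call for Hoxb5, detected in few cells, depended on the depth kept. Hoxa7 differed by 19.5 and 26.4 points in the first and the third experiment and Hoxb3os, another antisense RNA of the cluster, by -9.42 and -3.35, given as descriptions. In Late Spinal Cord, NMPs and Late Posterior PSM, where most cells held Hoxb5os and few served as the contrast, 0 HoxB genes were called in either experiment (10, 9 and 15 gastruloids in the first, 8, 7 and 10 in the third). With 7 or 8 gastruloids the exact test can give no very small p. After adjustment a single gene could hardly be called there, so the 0 does not show that co-detection is absent.

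**Figure D5:**
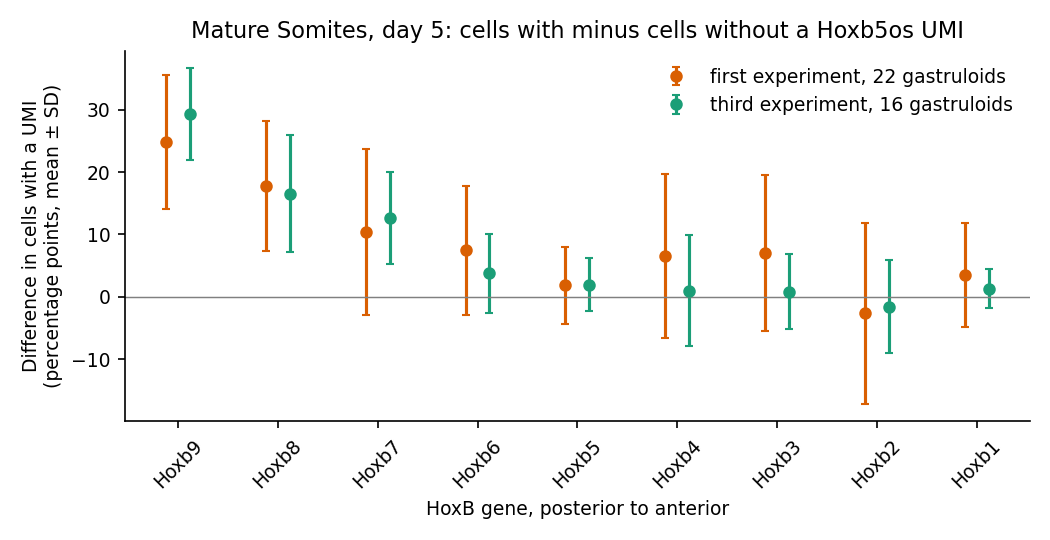
Percent of Mature Somites cells with a UMI of each HoxB coding gene (x axis, posterior to anterior), in cells with minus cells without a Hoxb5os UMI (y axis, percentage points), day 5, cells thinned to 5000 UMIs, mean ± SD over gastruloids. Hoxb9 lies highest in both experiments, at 24.8 and 29.4 points, and Hoxb5 lies at 1.84 and 1.94.

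The genes with the most similar pattern were sought among all genes and are given as a description. Across 24 cell types, with all cells of a type summed and 10023 genes ranked, the closest by Pearson correlation of log2(CPM + 1) were Hoxa7 (0.96), Hoxb6 (0.92), Hoxa4 (0.91), Hoxc9, Gm15050, Hoxd3os1, Hoxa9 and Hoxc6 (0.89). Hoxb5 ranked 11 with 0.88. The types share lanes, days and depth. Across the 40 day 5 gastruloids, centred on their experiment and with 7701 genes ranked, the closest were Hoxc6 (0.94), Hoxc9, Hoxc4, Hoxc8, Hoxb9 (0.93), Cenpv, Tdrkh and Mllt3 (0.91). Over gastruloids Hoxb6 reached only 0.36 (rank 1453) and Hoxb5 0.20 (rank 2315). Gastruloids share lanes and differ in their makeup of types, and the part of makeup in these values was not tested.

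Other Hox-related lists were counted in the same fits. From day 4.5 to 5 in summed gastruloids of the third experiment, of 5 tested genes on a list of 10 other Hox non-coding RNAs 0 were called higher and 1 lower. Of the 5 genes of paralogue groups 5 to 7 in other clusters 2 were higher and 0 lower, and of 15 genes acting upstream of Hox genes, such as the Cdx factors, 0 were higher and 2 lower, all against the background of 13.5%. From day 4 to 4.5 in the second experiment the same lists gave 0 of 5 tested, 1 higher of 4 and 2 lower of 14, against 7.36%. Hoxa7, a group 7 gene of the HoxA cluster, was the one called higher there (2.22, SE 0.421, adjusted p = 0.00192), next to 2.17 for Hoxb5os. In NMPs from day 4.5 to 5, 3 of 4 tested paralogue genes were called higher and 0 lower, and in Mature Somites 4 of 4, against 7.55% and 14% of all genes.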

How the data were processed

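Single-cell 3' RNA counts were analysed from 18 of 22 lanes. The authors deposited UMI counts per gene and cell, made with Cell Ranger 6.0.0 on mm10, with Seurat also named, per the submitters' processing notes. Cell names, doublet calls and the gastruloid of each cell came from the authors' deposited cell table. The day 3 and 3.5 lanes of the second MULTI-seq experiment were not used here. Hoxb5os and the gene lists were chosen with earlier results of these data known.

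Counts were summed per gastruloid (at least 30 cells) or per gastruloid and cell type (at least 10 cells) and tested with edgeR 4.0.16 in R 4.3.3 (TMM, filterByExpr, quasi-likelihood test, Benjamini-Hochberg adjustment over all genes tested, threshold 0.05). All fits but that of the day 4 to 4.5 step compared only the groups named. DESeq2 1.42.0 served as an alternative. Comparisons between types kept the gastruloid as a block. The fits were tested on simulated data with changed genes of mean counts above 20. A first draw from mean counts above 5 recovered too few changed genes between types with 8 pairs, so differences of low-count genes between types can be missed. Gastruloids came from 1 cell line and separate wells, so p-values cover the spread between wells of an experiment. Lanes of a pool are technical splits and were summed. Ratios and co-detection were tested with permutation tests over gastruloids (scipy 1.17.1, numpy 2.4.6). The exon positions and the sequence shown came from GENCODE M21 (GRCm38), and 1 further sequence is not reported here.

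Genes named were Hoxb5os, the 10 HoxB coding genes, the 3 further lists (other Hox non-coding RNAs, paralogue groups 5 to 7, upstream regulators) and the 8 closest genes by each correlation. Alternatives were DESeq2 size factors, total counts, no filter, higher cell minimums, 1 in place of 0.5 added to ratio counts, thinning to 8000 UMIs or none, at least 10 cells on each side of a co-detection contrast, and leaving out each lane. Total counts within types, the test of the day 4 to 4.5 step between experiments and the split of level and makeup were added after seeing the data.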

Additional observations from a re-analysis of the deposited data

Results flagged for a closer look

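In 5 of 42 groups of 4 to 10 gastruloids, 1 gastruloid lay far from the others in Hoxb5os level by Dixon's test, which flags about 1 in 20 by chance. In Early Spinal Cord at day 3.5 of the third experiment 1 of 10 gastruloids stood at 198 CPM (110 UMIs) and the next at 91.8. In Somites at day 4.5 of that experiment 1 of 10 stood at 133 (48 UMIs) and the next at 87.0. In Head Mesoderm at day 5 1 of 7 stood at 8.48 (6 UMIs) and the next at 2.81. In Cardiopharyngeal Mesoderm at day 4 1 of 8 stood at 2.72 (15 UMIs) and the next at 1.05. In Early Nascent Mesoderm at day 4 1 of 4 stood at 1.40, from 1 UMI, and the others at 0.

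Hoxb7, the HoxB gene next to the 3' end of Hoxb5os, had a step from day 4 to 4.5 that was 1.14 larger on the log2 scale in the third than in the second experiment (SE 0.434, edgeR adjusted p = 0.0363). With total counts it was 0.92 (adjusted p = 0.0756).

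Cells outside the comparisons also held Hoxb5os. In the first 10X lanes without gastruloid barcodes it stood at 0.605 CPM at day 3 (33 UMIs) and at 60.9 at day 4 (2289 UMIs). In the 5106 cells of pool C of the second MULTI-seq experiment, none of them given to a gastruloid, it stood at 93.3 (10799 UMIs).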

How the results depend on the processing

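The Hoxb5os difference between the third and second experiments at day 4.5 was no longer called with total counts (0.60) or with no filter on low counts (0.65). Within types at day 5, total counts turned the Early Spinal Cord difference to -0.086 and ended the calls in Late Anterior PSM (0.076) and Late Spinal Cord (0.050). Leaving out a lane of the second experiment's pool moved its count of genes called from day 4 to 4.5 from 814 to 340 and 535. Co-detection with at least 10 cells on each side called 1 HoxB gene in Late Spinal Cord of the first experiment in place of 0, and thinning to 8000 UMIs called 5 in Mature Somites of the third in place of 3. The causes were not tested. Other alternatives kept direction and call for 396 of 403 ratio values, 132 of 135 days-within-type values and 46 of 48 day values. Without thinning, 62 of 64 shares of cells with a Hoxb5os UMI moved beyond their spread and 2 did not. The 7 ratio calls lost were 4 to Hoxb13 and 3 to Hoxb6 (Hoxb13 counts were near 0), and the 3 lost within types came from the minimum of 20 cells (Hoxb5 and Hoxb4 in NMPs, Hoxb9 in Late Posterior PSM). Comparisons of types and of cells within a gastruloid were paired by gastruloid. Between days or experiments, no gastruloid is in both groups. No paired analysis was possible because the numbers those groups share name lanes, which are technical splits of a pool, and not gastruloids. Day 3 counts, at 36 UMIs in all, limit any statement on types there.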
